A study of Mus musculus with 96 samples.

Results

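Maternal immune activation (MIA) was compared with saline in the prefrontal cortex of male mice that received no inhibitor of the colony-stimulating factor 1 receptor (CSF1R). The comparison set 5 MIA libraries (numbered 2 to 6 in the labels) against 6 saline libraries (numbered 1 to 6), 11 of the 96 libraries of the series. Genes with a deposited signal of at least 10 in at least 5 of these 11 libraries were tested, which left 18344 of the 22709 genes in the table. No gene was called. The values of the genes, gene groups and libraries behind that count are given here, with the size of difference the libraries could resolve.

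All 11 libraries were mouse prefrontal cortex, labelled male and given as CSF1R inhibitor controls. The group called MIA carried the treatment label for maternal immune activation, and the other group was labelled saline. The series also covers hippocampus, females and mice given PLX5622 (PLX), an inhibitor of CSF1R that removes microglia, and its design names renewal of microglia as the purpose of the inhibitor. The agent of immune activation, its dose and gestational day, the form of the inhibitor control, strain, age at collection, litter and pooling are not given in the labels. The treatment was applied to the mother, so littermates share it, and libraries of a litter would not be independent replicates of MIA. Litter could not enter any model, and each p-value reflects only how far libraries spread within groups, pooled over all groups of the fit.

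Maternal immune activation is a model in which the immune system of a pregnant rodent is stimulated and the offspring are studied later in life. Maternal cytokines can reach or signal to the placenta and fetal brain, at an age when neurons migrate and microglia, the resident macrophages of the brain, settle there. Offspring are studied for changes in social and repetitive behaviour, in cortical inhibitory neurons and synapses, in microglia and in the stress hormone axis. The prefrontal cortex, which serves working memory and social behaviour, is among the regions most often examined.

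Depth was even, at 23.5 M to 25.9 M recovered reads per library, and the scaling factors ran from 0.932 to 1.107. Pairs of the 11 libraries correlated at 0.976 to 0.993 on the log2 scale across genes, and no pair of columns was identical. The male labels matched Xist and Y-linked genes in 11 of 11 libraries. Cortical genes were present in every library, with a summed signal of 23657 to 25323 (MIA) and 21458 to 25961 (saline) for 19 genes of layers 5 and 6. Genes of striatal projection neurons, such as the dopamine receptor Drd1, varied several-fold within both groups: the summed signal of 17 such genes ran from 12208 to 50835 in MIA and from 14737 to 50580 in saline libraries.

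Libraries parted into a cluster with a high share of transcripts for ribosomal proteins and nuclear-encoded respiratory chain subunits and a cluster with a low share. Over the 48 prefrontal libraries the highest share in the low cluster was 1.07% and the lowest in the high cluster was 1.19%. The high cluster held 3 of the 5 MIA libraries (3, 4 and 6) and 5 of the 6 saline libraries (1 to 5), leaving MIA 2, MIA 5 and saline 6 in the low cluster. On the first principal component, which held 27.9% of the variance, saline 2 lay between the clusters and fell with the low one. Results are therefore given from the fit of the 8 prefrontal groups and, where they move, from a fit with a term for these clusters.

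The count of genes called at an adjusted p under 0.05 was 0 (0% of those tested) by limma, with a smallest adjusted p of 1.00. The genes with an unadjusted p under 0.05 numbered 461 (2.51%), of which 255 were higher in MIA (1.39%) and 206 lower (1.12%). The same count of calls was 0 by edgeR (441 at an unadjusted p under 0.05) and 0 by DESeq2 (463). With the term for the clusters it was again 0 by limma, with 1165 genes at an unadjusted p under 0.05 (6.35%), 688 higher (3.75%) and 477 lower (2.6%), and a smallest adjusted p of 0.758. Of the 461 genes, 360 also had an unadjusted p under 0.05 with the term.

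The differences were small for most genes. The median log2 fold change was 0.01, 91.3% of genes lay within 0.25 of zero and 98.8% within 0.5, on the log2(signal + 1) scale. The standard error of a log2 fold change had a median of 0.12 (interquartile range 0.08 to 0.19). For 17669 genes (96.3%) the 95% confidence interval lay within a log2 fold change of 1 in either direction, and for 13551 (73.9%) within 0.5. A log2 difference beyond 1 was thus outside the interval for nearly all genes tested one at a time, whereas smaller differences often were not.

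Microglia are the cells that CSF1R inhibition targets, and none of their genes was called. Csf1r itself, the receptor that microglia need to survive, read 2611, 2701, 2335, 2463 and 2365 in MIA libraries 2 to 6 and 2479, 2590, 2323, 2394, 2473 and 2744 in saline libraries 1 to 6. The groups overlapped along almost their whole range, and the log2 fold change was −0.00 ± 0.07 (SE), with a 95% interval from −0.14 to 0.13. Of 25 homeostatic microglia genes, 12 lay above zero and 13 below, the median was −0.00 against 0.01 for all genes, and none was called. With the cluster term 19 of the 25 lay above zero, with a median of 0.04, and the lectin gene Siglech alone had an unadjusted p under 0.05, higher. P2ry12, the ADP receptor that guides microglial processes, had 1027 ± 88.5 in MIA and 981 ± 186 in saline (mean ± SD, n = 5 and 6), Tmem119 608 ± 59.6 and 638 ± 103, and the fractalkine receptor Cx3cr1 1241 ± 104 and 1215 ± 156. The fructose transporter gene Slc2a5 was the one member with an unadjusted p under 0.05 without the term (log2 fold change −0.26 ± 0.13). In bulk tissue, fewer cells of a type and less RNA per cell cannot be told apart.

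Activated microglia genes lay above zero in 9 and below in 9 of 18 cases, with a median of −0.00. The fit with the cluster term put 13 above and 5 below, with a median of 0.07. Csf1, a ligand of the receptor above, had the smallest p of that list. Its signal was 412, 482, 486, 474 and 462 in MIA and 462, 531, 527, 564, 491 and 525 in saline libraries. The MIA libraries took the low end, although 3 of them lay above the lowest saline library, and the log2 fold change was −0.16 ± 0.06. The disease-associated genes Itgax, Clec7a and Cst7 did not reach the filter, with highest signals of 11.1, 12.3 and 5.64. Of 12 border macrophage and leukocyte genes tested 9 lay below zero, with a median of −0.05 and none at an unadjusted p under 0.05.

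Most of the lower genes with the smallest p-values had a low signal. Sag, which encodes the arrestin of photoreceptors, had the smallest p of all. It read 39.5, 62.7, 56.5, 59.8 and 51.7 in MIA and 76.1, 65.4, 64.1, 77.1, 93.6 and 69.4 in saline. Every MIA library lay below every saline library, by a margin of less than 2 units between 62.7 and 64.1. The log2 fold change was −0.46 ± 0.12 (unadjusted p = 0.000612, adjusted p = 1.00, limma).

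Mapk15, an atypical MAP kinase, had 10.1, 7.72, 9.26, 3.92 and 4.06 in MIA against 29.3, 15, 15.4, 17.9, 13.2 and 20.1 in saline, a log2 fold change of −1.32 ± 0.36 without overlap. Slc23a3, a member of the ascorbate transporter family, had 6.07, 9.65, 8.33, 3.92 and 6.09 against 15.6, 21.5, 15.4, 15, 12.3 and 14.1, or −1.12 ± 0.33, again without overlap. These values rest on 4 to 10 recovered reads per MIA library for both genes and 13 to 30 per saline library. In Slc23a3 no MIA library reached the minimum of 10, so the gene was tested because of its saline values. Mapk15 reached it in MIA 2 alone of the MIA libraries, so its entry also rested on its saline values. Of all genes tested, 2 had no MIA library at the minimum and 1 had no saline library at it.

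Fmo2, a flavin monooxygenase, showed the widest difference among the better expressed of these genes. Its signal was 74.9, 44.4, 54.6, 36.2 and 33.5 in MIA and 123, 78.3, 62.3, 136, 134 and 139 in saline. A single MIA library, MIA 2, reached into the saline range, and the log2 fold change was −1.18 ± 0.36 (unadjusted p = 0.00206, adjusted p = 1.00, limma). It was −1.22 ± 0.41 in hippocampal males, −0.29 ± 0.33 in prefrontal females and −0.45 ± 0.35 in prefrontal males given PLX. Ogdhl, a brain form of a Krebs cycle enzyme subunit, had the highest signal among the lower genes, 2834 ± 221 against 3259.6 ± 294, a log2 fold change of −0.20 ± 0.06 with overlapping groups. The remaining lower genes of this set were Catsperd, Lad1, Ccdc88b, Ccnjl and Hmgb2, with log2 fold changes from −0.69 (Hmgb2) to −0.31 (Ccdc88b).

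Among the genes that were higher in MIA, Xkrx, an XK-family membrane protein gene, had the smallest p. Its signal was 44.5, 61.7, 68.5, 58.8 and 57.8 in MIA and 45.9, 46.1, 33.4, 26.3, 35 and 39.2 in saline, so that MIA 2 alone lay among the saline libraries. The log2 fold change was 0.63 ± 0.18 (unadjusted p = 0.00116, adjusted p = 1.00, limma).

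Pdk3, a kinase that inhibits pyruvate dehydrogenase, parted the groups fully. The MIA libraries read 729, 667, 671, 683 and 697, and the saline libraries 565, 618, 558, 664, 597 and 586. The difference was small in size, 0.21 ± 0.06 on the log2 scale. Slc39a8, a zinc and manganese transporter gene, had a log2 fold change of 0.40 ± 0.12, and Rgs4, a neuronal brake on G-protein signalling and the most abundant of this set, 0.19 ± 0.06 (11661 ± 846 against 10248 ± 637). The others were Apool, Sptlc2, Sox2ot, Akr1e1, Dkk2 and Vps36, from 0.14 (Vps36) to 0.54 (Dkk2).

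**Figure D1:**
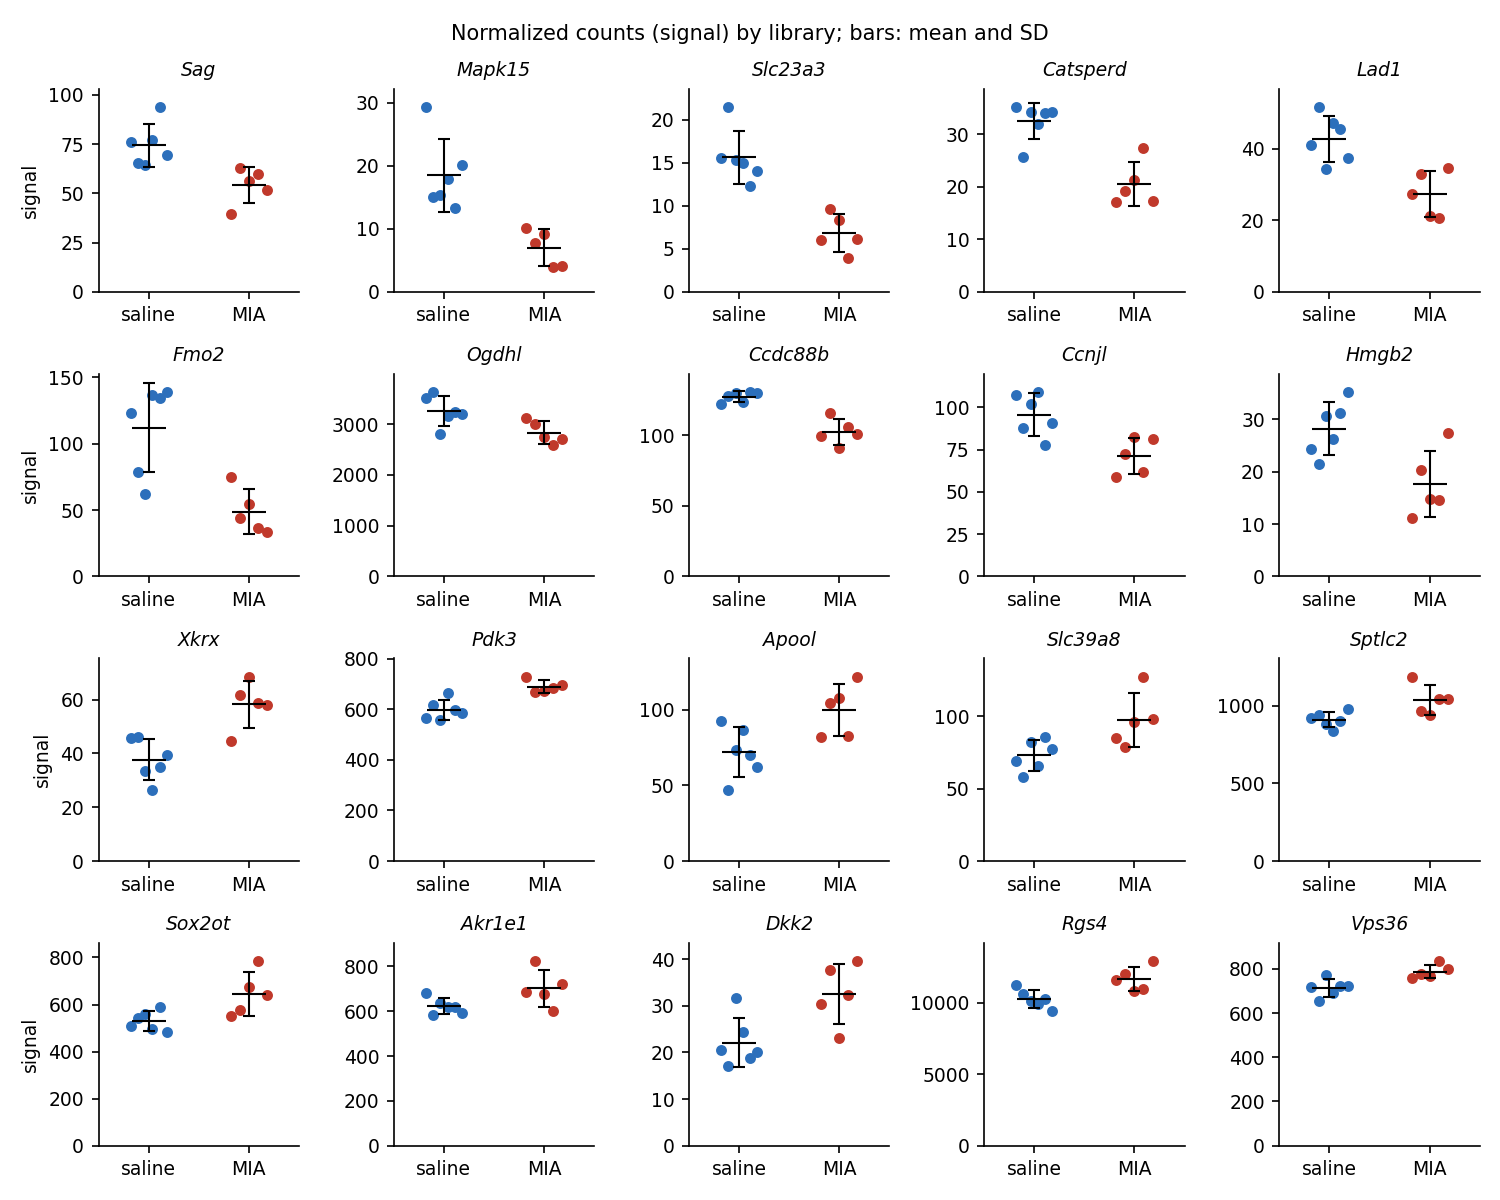
Deposited signal (y axis, from 0) in each saline (blue, n = 6) and MIA (red, n = 5) library for the 10 genes lower in MIA (top) and the 10 higher in MIA (bottom) with the smallest p-values. Black bars give the mean and SD. Sag, Mapk15, Slc23a3, Ccdc88b and Pdk3 part the groups without overlap, while Fmo2 and Xkrx each have an MIA library within the saline range.

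Genes whose groups did not overlap numbered 49 (0.267% of those tested), 28 higher and 21 lower in MIA. Among those with a mean signal of at least 50, the differences furthest from zero belonged to Gata2, a transcription factor of midbrain and brainstem neurons and of blood, at −0.50 ± 0.17, and Nes, the intermediate filament nestin of neural progenitors and vessels, at 0.42 ± 0.16. Nes read 376, 330, 356, 489 and 513 in MIA and 309, 272, 324, 294, 294 and 328 in saline. The lowest MIA and the highest saline library differed by less than the spread within either group.

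Slco1c1, the thyroid hormone transporter of the blood-brain barrier, was 1671, 1629, 1612, 1550 and 1652 in MIA and 1332, 1310, 1437, 1381, 1453 and 1420 in saline. The log2 fold change was 0.23 ± 0.09, and all 5 MIA libraries lay above all 6 saline libraries. Tbc1d8b, Heca and Pik3r3 were the other higher genes with Pdk3, and Glp2r, Ncf1, Ccdc88b and Net1 the other lower ones with Sag. Ncf1, a subunit of the phagocyte NADPH oxidase, stood at 134 to 183 in MIA and 189 to 215 in saline (−0.34 ± 0.12).

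Genes of the stress hormone response lay mostly below zero. The list holds genes that glucocorticoids induce through the glucocorticoid receptor Nr3c1, together with that receptor and the mineralocorticoid receptor Nr3c2. Of 18 genes, 15 were lower and 3 higher in MIA, and the median log2 fold change was −0.23, against 0.01 over all genes. None was called, and 3 of the 18 had an unadjusted p under 0.05, each lower (1.12% of all genes were lower at that p): Plin4, Hif3a and Sult1a1.

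Sult1a1, a sulfotransferase gene, read 156, 225, 206, 125 and 149 in MIA and 219, 238, 284, 285, 280 and 227 in saline. Of the MIA libraries MIA 3 alone lay above the lowest saline library, and the log2 fold change was −0.59 ± 0.21 (unadjusted p = 0.00663, adjusted p = 1.00, limma). Hif3a, a hypoxia-inducible factor, had 315, 149, 157, 107 and 112 against 217, 275, 310, 300, 299 and 309, with MIA 2 at the top of all 11 and the other 4 MIA libraries under every saline one (−0.87 ± 0.33). Plin4, a lipid droplet protein gene picked for mention after its values were seen, had 225, 201, 118, 34.3 and 44.6 against 162, 457, 300, 727, 387 and 180, a log2 fold change of −1.73 ± 0.67.

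The receptor genes themselves did not follow: Nr3c1 was at 0.12 ± 0.10 and Nr3c2 at 0.03 ± 0.09. Fkbp5, the co-chaperone that restrains the receptor, was at −0.42 ± 0.24, Tsc22d3 (GILZ) at −0.36 ± 0.20 and the kinase gene Sgk1 at −0.28 ± 0.18; none of these 3 had an unadjusted p under 0.05. Averaged over the list, the libraries lay between −0.56 and −0.18 in MIA and between −0.35 and 0.36 in saline, as log2 levels relative to the saline mean. Saline 6 lay within the MIA range and the other 5 saline libraries above all of it. The median ran from −0.33 without saline 6 to −0.14 without MIA 2 when single libraries were left out. With the cluster term it was −0.15 with 16 of 18 genes lower. An unadjusted p under 0.05 was then found for 4 lower genes, among them Zbtb16, and for 1 higher, Cdkn1a. Of all genes in that fit, 2.6% were lower and 3.75% higher at that p. Among the libraries outside the high cluster, MIA 2, MIA 5 and saline 6 in this comparison and so a single saline library, the median was −0.05 with 10 of 18 genes lower.

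The same list in the other comparisons was read side by side. In the hippocampus of males without inhibitor, 17 of 18 genes lay below zero with a median of −0.23, against 9787 of 18344 genes below zero and a median of −0.01 over all genes. There 3 of the 18 had an unadjusted p under 0.05, each lower, against 1.1% of all genes. Library labels there carry the same group names and numbers, so the tissues may come from the same animals and are no independent set. In prefrontal females the median was 0.11 and in prefrontal males given PLX it was −0.04.

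The difference between the sexes was tested directly. Over all genes, 0 of 18344 differences were called by limma (smallest adjusted p 1.00), and 366 had an unadjusted p under 0.05 (2%), 185 of them lower in males (1.01%). Within the stress hormone list 7 of 18 had an unadjusted p under 0.05, each with the lower value in males. Pdk4, another pyruvate dehydrogenase kinase gene, had the smallest p of all genes: its log2 fold change was −0.13 ± 0.12 in males and 0.51 ± 0.11 in females, a difference of −0.64 ± 0.16 (unadjusted p = 0.000183, adjusted p = 1.00, limma). Ddit4 and Sgk1 differed by −0.85 and −0.70. The genes of this list share regulation and are not independent of each other.

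**Figure D2:**
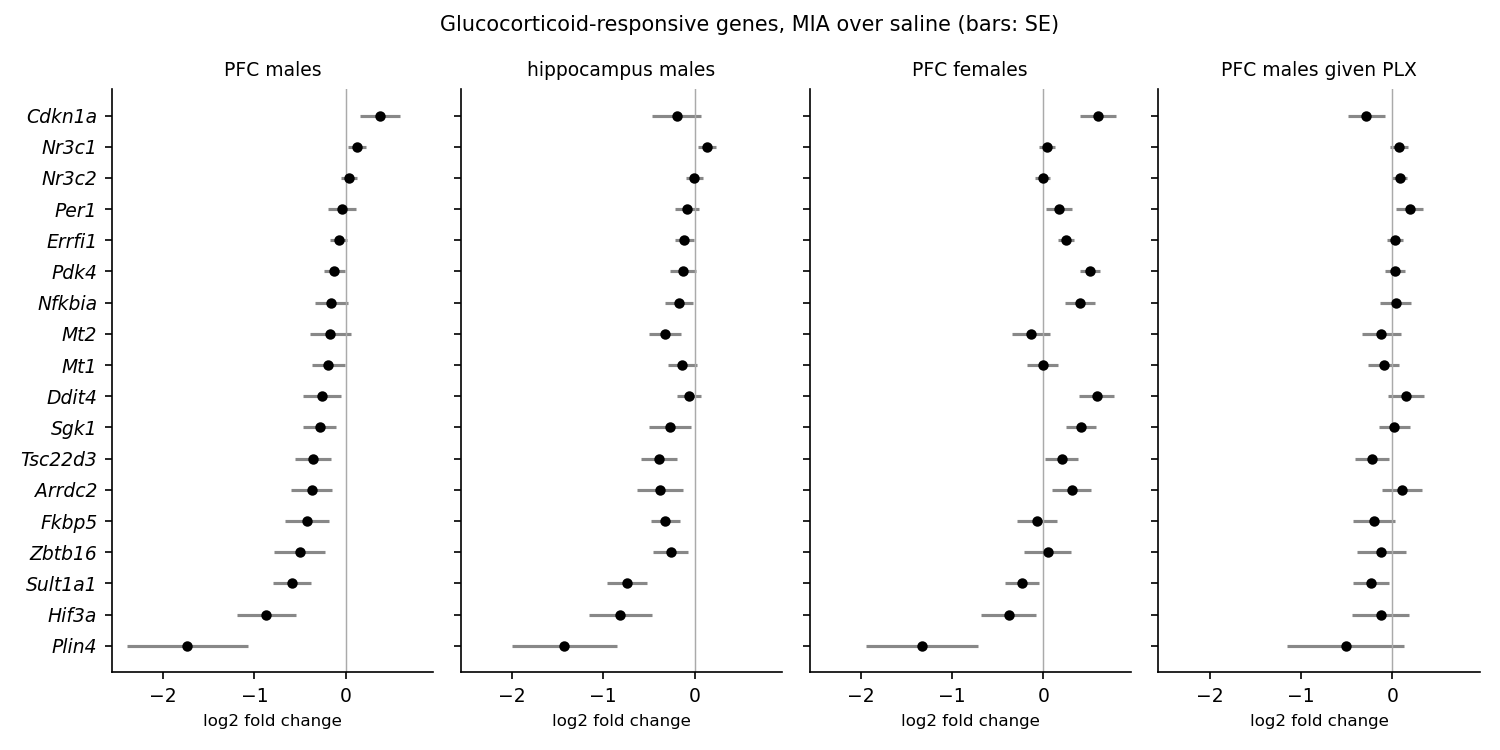
Log2 fold change of MIA over saline (x axis, on the log2(signal + 1) scale) for the 18 genes of the stress hormone list, in prefrontal cortex (PFC) and hippocampus of males without inhibitor, in PFC of females without inhibitor and in PFC of males given PLX. Points are estimates and bars are SE. In PFC and hippocampus of males 15 and 17 genes lie below zero, while the female panel has 7 below.

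Both lists of genes switched on by neuronal activity had a median above zero; no test compared the lists. Of 28 immediate early genes, which respond within minutes to synaptic input, 18 lay above and 10 below zero, with a median of 0.07. Fosl2, Fosb, Nr4a3 and Egr3, all transcription factors, had an unadjusted p under 0.05, each higher, against 1.39% of all genes. Fosl2 read 1675, 1289, 1621, 3100 and 2526 in MIA and 1445, 1566, 1626, 1332, 958 and 914 in saline (0.60 ± 0.22). MIA 5 and MIA 6 stood far above the rest. The MIA library at 1675 lay just above the highest saline library, at 1626. The MIA libraries at 1289 and 1621 lay within the saline range.

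Fos itself ran from 285 to 2600 in MIA and from 522 to 1525 in saline, a log2 fold change of 0.10 ± 0.37. The level of the whole list was 0.77 in MIA 5, 0.60 in MIA 6 and −0.74 in MIA 2, against −0.54 to 0.27 in saline. Without MIA 5 the list's median was −0.07 and without MIA 2 it was 0.28, so a single library set its sign. In prefrontal females the median was 0.62. The sex difference had an unadjusted p under 0.05 for 5 of the 28 genes, with the lower value in males in each, against 1.01% of all genes; Klf2 had the smallest, at −0.41 ± 0.22 in males and 0.76 ± 0.20 in females (difference −1.17 ± 0.30).

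Slower activity-induced genes, among them neurotrophins and secreted synaptic proteins, lay above zero in 16 of 19 cases, with a median of 0.13, and with the cluster term in 13 of 19, with a median of 0.20. Without the term 3 of the 19 had an unadjusted p under 0.05, each higher, against 1.39% of all genes. They included Crem (0.28 ± 0.11), a cAMP-responsive transcription factor, and Pcsk1 (0.40 ± 0.16), a protease that matures neuropeptides. The other was Homer1 (0.43 ± 0.21), a scaffold of postsynaptic glutamate receptors. With the term 4 of the 19 were higher at that p, against 3.75% of all genes. Homer1 read 9588, 7287, 7104, 7189 and 7050 in MIA and 4566, 7067, 7446, 7079, 4417 and 4246 in saline. The saline libraries formed a low set (1, 5 and 6) and a high set (2, 3 and 4), and the MIA libraries lay at the level of the high set or above it.

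Bdnf, the main activity-regulated neurotrophin, showed the same split, with 452 to 673 in saline 1, 5 and 6, 798 to 1077 in saline 2, 3 and 4, and 756 to 1067 in MIA. Its log2 fold change was 0.33 ± 0.18. The mean level of the 19 genes was 0.03 to 0.26 in MIA and −0.30 to 0.33 in saline. Of these genes, 4 had an unadjusted p under 0.05 for the difference between the MIA effect without and with PLX, against 4.04% of all genes.

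Inhibitory synapse genes lay slightly above zero. All 13 GABA-A receptor subunit genes tested had a positive log2 fold change, from 0.01 to 0.16, with a median of 0.09. Over all genes, 9913 of 18344 lay above zero. An unadjusted p under 0.05, higher, was found for 2 of the 13, against 1.39% of all genes. With the cluster term it was 1, against 3.75%. The list's level was highest in MIA 5, saline 6 and MIA 2 (0.24, 0.19 and 0.18), the 3 libraries of the low cluster, and with the cluster term 9 of 13 genes were positive with a median of 0.05. The part of the clusters in this difference was not tested.

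Interneuron markers were positive in 22 of 28 cases, with a median of 0.09 and none at an unadjusted p under 0.05. Pvalb, the calcium buffer of fast-spiking cells, had 683 ± 164 in MIA and 664 ± 143 in saline (0.04 ± 0.18), and the neuropeptide gene Sst 2963 ± 690 and 2906 ± 783 (0.04 ± 0.17). Glutamate receptor genes were positive in 19 of 22 cases (median 0.06), and genes of synaptic adhesion and scaffolds in 20 of 28 (median 0.04). With the cluster term these counts were 11 of 22 and 13 of 28, with medians of −0.00 for both lists. The levels of both lists were highest in MIA 2 and MIA 5, libraries of the low cluster. Perineuronal net genes had a median of 0.08, upper cortical layer genes −0.01 and deep layer genes 0.07. With the term these medians were 0.01, −0.06 and 0.05, and perineuronal net genes divided 6 to 6. Without MIA 5 the perineuronal net median was −0.04.

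Immune genes beyond microglia gave no call. Interferon-stimulated genes, the antiviral program, were lower in 22 of 29 cases with a median of −0.10, and none had an unadjusted p under 0.05. In the fit with the term 23 of 29 were lower with a median of −0.12. Ifit3b, Stat2 and Ddx58, 3 of the 29, then had an unadjusted p under 0.05, each lower, against 2.6% of all genes. Ifit3b, an antiviral RNA-binding protein gene, had the smallest p without the term, at −0.40 ± 0.20. The list's level spanned −0.22 to 0.09 in MIA and −0.35 to 0.32 in saline, so the MIA range lay inside that of saline. Antigen presentation genes (MHC class I and II) were lower in 16 of 22 cases, with a median of −0.06 (13 of 22 and −0.02 with the term); reads of several of these genes can be shared between near-identical copies.

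Cytokine and receptor genes were higher in 21 and lower in 12 of 33 cases (median 0.03), and in 19 and 14 with the term. With the term 4 of the 33 had an unadjusted p under 0.05, each lower, against 2.6% of all genes. Il1r1, the interleukin-1 receptor, was 65.9 to 110 in MIA and 96.5 to 133 in saline (−0.37 ± 0.16). It was 1 of 2 list members with an unadjusted p under 0.05 without the term, each lower, against 1.12% of all genes. The cytokine genes Il1b, Ccl3 and Ccl5 did not reach the filter, with highest signals of 13.2, 4.03 and 4.73. Tlr2, a receptor for bacterial lipoproteins, read 17.2, 28.0, 30.5, 32.3 and 23.3 in MIA and 12.7, 11.8, 18.1, 18.8, 21.7 and 20.1 in saline. It was the sole Toll-like receptor list member of 18 with an unadjusted p under 0.05 (0.58 ± 0.20), and MIA 2 lay within the saline range. The list's members lay above zero in 11 of 18 cases, and in 9 with the term.

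Among 22 complement genes, Cd55, which protects cells from complement, was higher (0.22 ± 0.10), and C1s1 (−0.54 ± 0.25) and C4b (−0.29 ± 0.14) were lower at an unadjusted p under 0.05. C4b read 388 to 604 in MIA and 393 to 735 in saline, so the ranges overlapped for most of their length. C1s1 and C4b have close paralogs that may share reads. The median of the list was −0.03, and −0.01 with the cluster term, where Cd59a, higher, and Csmd1, lower, also had an unadjusted p under 0.05. Of all genes in that fit, 3.75% were higher and 2.6% lower at that p, against 1.39% and 1.12% without the term.

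**Figure D3:**
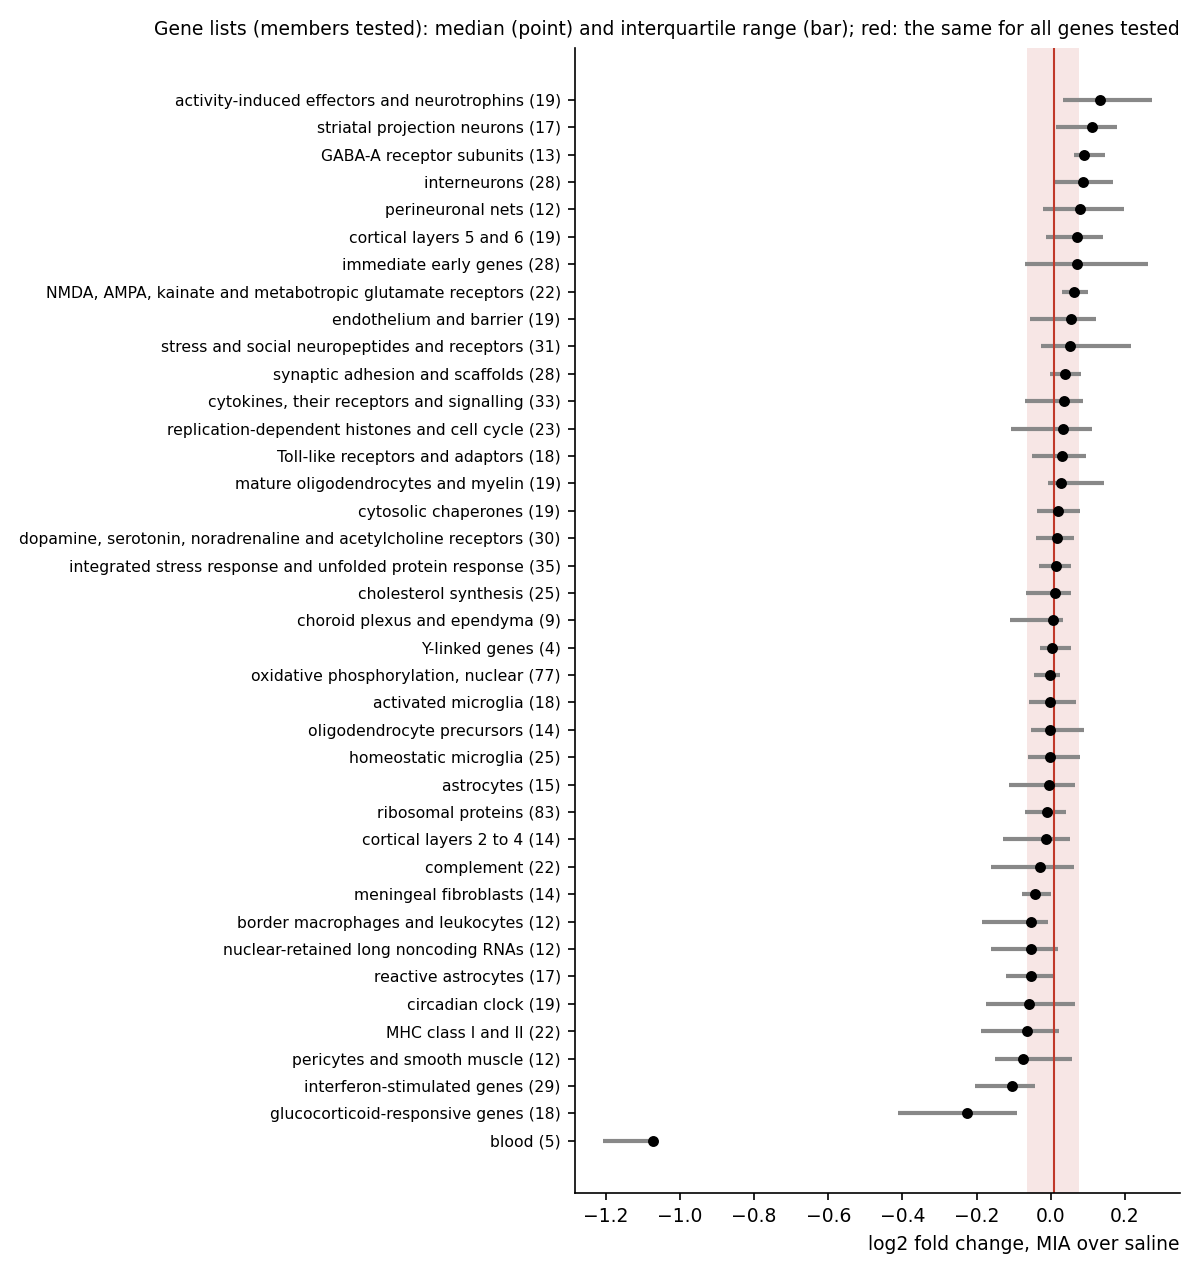
Median log2 fold change of MIA over saline (points) with the interquartile range of members (bars) for each gene list, with the number of members tested in brackets. The red line and band give the median and interquartile range of all 18344 genes. Blood genes and the stress hormone list lie lowest and the activity-induced effectors highest; no member of any list was called.

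The median was −0.00 for 15 astrocyte genes, 0.03 for 19 myelin genes, −0.00 for 14 precursor genes and 0.05 for 19 endothelial genes. The myelin median with the cluster term was 0.10 with 18 of 19 genes above zero, and the other 3 were −0.01, −0.01 and 0.05. Gfap, the astrocyte filament, had 2772 ± 310 in MIA and 3073 ± 722 in saline, and Mbp, a myelin protein gene, 33041 ± 3941 and 34095 ± 3942. Slc2a1, the glucose transporter of the blood-brain barrier, was at −0.27 ± 0.13, the 1 gene of these lists with an unadjusted p under 0.05; with the term it was the astrocyte gene S100b instead, higher. Ribosomal protein genes (83) and nuclear respiratory chain genes (77), which define the clusters, had medians of −0.01 and −0.00, and 0.09 and 0.09 with the cluster term. With the term 65 of 83 and 71 of 77 lay above zero. An unadjusted p under 0.05, higher, was then found for 7 and 18 of them, against 3.75% of all genes. Both medians lay near zero without the term, so the term, which is drawn from these same genes, moved the lists above zero. The part of this shift in the other values with the term was not tested.

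Genes of cell stress, metabolism and hormones gave no call either. The median was 0.01 for 35 genes of the integrated stress and unfolded protein responses, 0.02 for 19 cytosolic chaperone genes and 0.01 for 25 cholesterol synthesis genes. With the cluster term these medians were 0.06, 0.09 and 0.00, and 24 of 35 stress response and 16 of 19 chaperone genes lay above zero. Hsp90aa1, an abundant chaperone that also folds steroid receptors, was the 1 gene of these lists with an unadjusted p under 0.05 without the term; it read 10356, 11416, 11146, 9248 and 11777 in MIA and 9928, 9248, 10469.5, 10008, 10594 and 7978 in saline (0.15 ± 0.07). The high-cluster libraries MIA 3, 4 and 6 lay above every saline library, and MIA 2 and 5 within the saline range.

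Circadian clock genes lay below zero in 12 of 19 cases (median −0.06), and neuropeptides of stress and social behaviour with their receptors above zero in 19 of 31 (median 0.05). With the term the medians were −0.07 and 0.03. Sstr1, a somatostatin receptor, was the 1 gene of these 2 lists with an unadjusted p under 0.05 without the term (−0.24 ± 0.12). Oxt and Avp, the hormones oxytocin and vasopressin, did not reach the filter and were at 0 in 4 libraries each. Dopamine, serotonin, noradrenaline and acetylcholine receptor genes divided 15 to 15 with a median of 0.02.

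Histone and cell cycle genes had a median of 0.03, with H2bc6 (0.38 ± 0.16) and H1f4 (0.58 ± 0.27) higher at an unadjusted p under 0.05; histone genes have near-identical copies. Nuclear-retained noncoding RNAs had a median of −0.05, reactive astrocyte genes −0.05, pericyte genes −0.07, meningeal genes −0.04 and choroid plexus genes 0.01, with no member at an unadjusted p under 0.05. With the cluster term these medians were −0.14, −0.06, −0.05, −0.06 and −0.01, and Snhg14, of the noncoding RNAs, was lower at an unadjusted p under 0.05.

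Some gene lists varied widely between libraries of the same group. Haemoglobin and other red cell genes were lower in 5 of 5 cases with a median of −1.07, and none had an unadjusted p under 0.05. Hbb-bs read 9.11, 128, 426, 133 and 236 in MIA and 327, 295, 252, 1247, 139 and 69.4 in saline. MIA 2 was the lowest and saline 4 the highest of all, and the median was −0.24 without MIA 2 and −0.76 with the cluster term. Haemoglobin genes have near-identical copies that may share reads.

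Striatal genes had a median of 0.11, with list levels from −1.44 (MIA 5) to 0.94 (MIA 3); the median was 0.47 without MIA 5 and −0.09 without MIA 3. All 17 were positive with the cluster term, with a median of 0.22, while the median was 0.62 within the high cluster and −0.54 outside it. Drd1 read 869, 1703, 1471, 384 and 1348 in MIA and 1675, 1507, 461, 1000, 521 and 841 in saline. Eomes, a transcription factor of olfactory projection neurons and cortical progenitors, and the calcium-binding protein gene Scgn are named after their values were seen. Eomes ran from 9.65 to 679 in MIA and from 3.22 to 454 in saline, and Scgn from 26 to 304 and from 3.22 to 325. Both were highest in MIA 5 and saline 5, where striatal genes were low, and lowest in saline 2 and saline 1. The part of tissue composition in the other differences was not tested.

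Of 17 genes with a log2 fold change beyond 1 in either direction (6 higher, 11 lower), 7 had a mean signal of at least 50. Xlr3b, an X-linked gene with near-identical neighbours, had the highest value, 2.20 ± 0.98, with a signal of 47.6, 92.6, 16.7, 17.6 and 50.7 in MIA and 56.6, 0, 128, 0, 0.945 and 20.1 in saline. Its saline libraries held both the lowest and the highest values, so the groups overlapped across the whole MIA range. It is named after its values were seen.

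**Figure D4:**
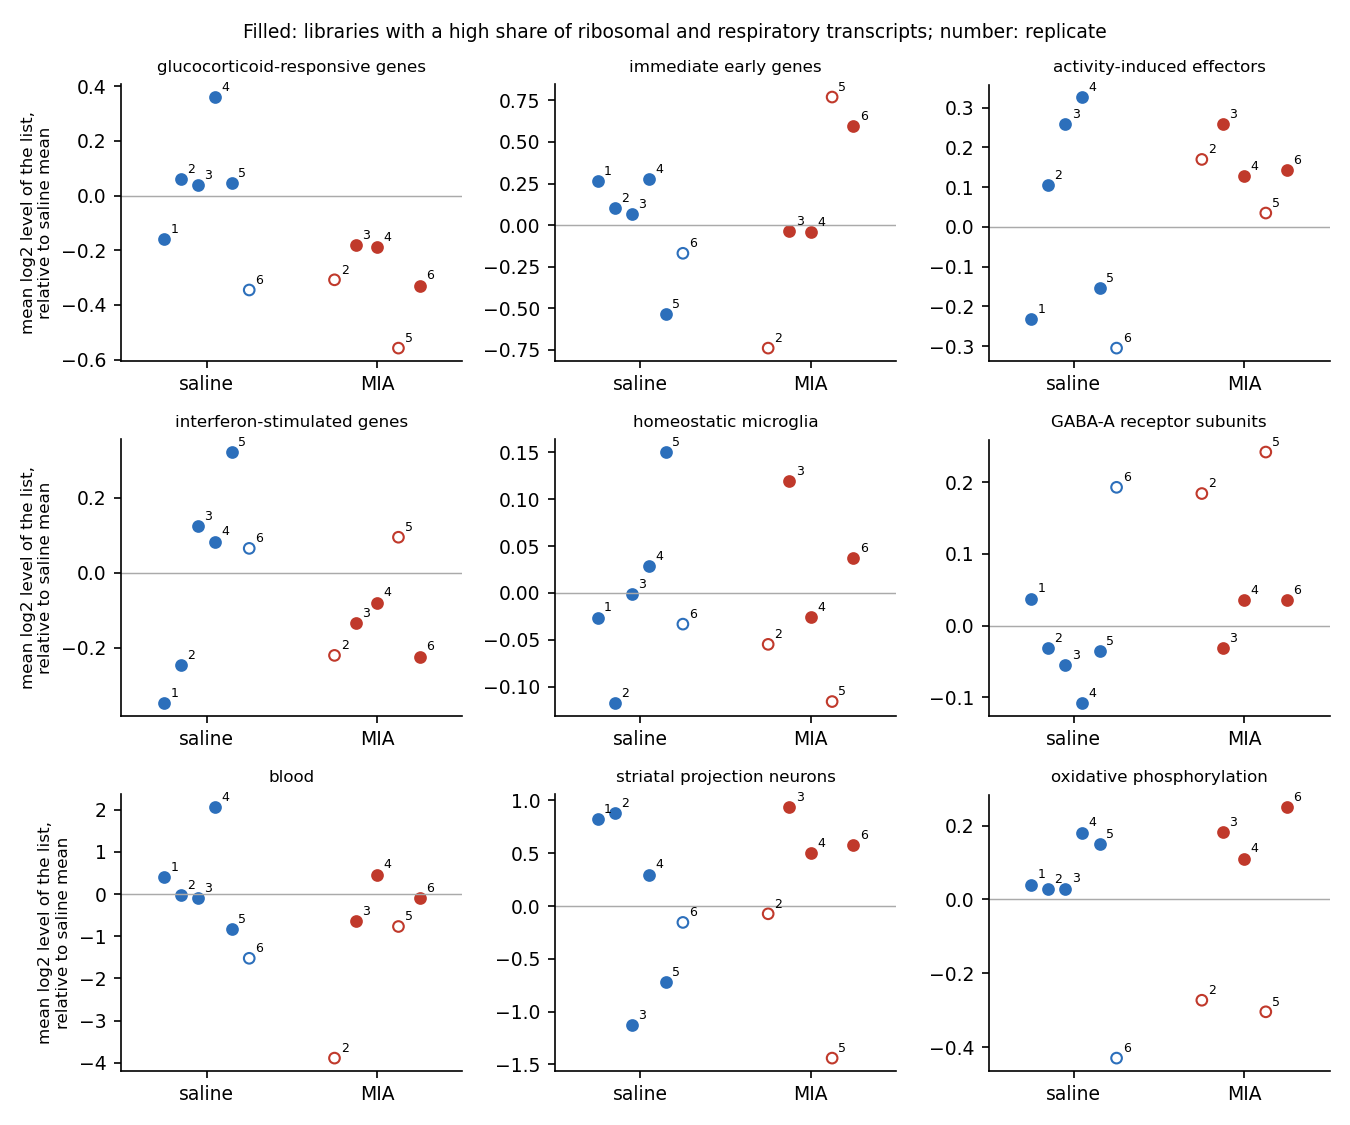
Mean log2 level of 9 gene lists in each library, relative to the mean of the 6 saline libraries (y axis), for saline (blue) and MIA (red). Filled circles are libraries of the cluster with a high share of ribosomal and respiratory transcripts, open circles the low cluster, and numbers are replicates. MIA and saline overlap in every panel; MIA 2 lies apart for blood genes, and striatal levels spread widely in both groups.

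The term for the clusters brought further genes forward, none of them called. Gng11, a G-protein subunit gene, had the smallest p of those higher in MIA, at 0.56 on the log2 scale with the term and 0.45 without it. Syp, the synaptic vesicle protein synaptophysin, was at 0.06 without and 0.12 with the term, and Pcp4, a calmodulin regulator, at 0.13 and 0.23. Among the lower genes Rnf125, a ubiquitin ligase gene with a signal of 4.63 to 29.0, was at −0.80 without and −0.95 with the term and Dhx33, an RNA helicase gene, at −0.12 and −0.19. Wdyhv1 and Kctd15 were also higher and Inpp5e, Pign, Zfp973 and Zmynd11 also lower.

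The MIA effect without inhibitor was set against that in males given PLX (12 libraries). None of the 18344 differences was called by limma (smallest adjusted p 1.00), and 741 had an unadjusted p under 0.05 (4.04%). Chaf1a, a chromatin assembly factor gene, had the smallest p: the log2 fold change was −0.25 ± 0.12 without and 0.44 ± 0.11 with PLX, a difference of −0.70 ± 0.16 (unadjusted p = 0.000109, adjusted p = 1.00, limma). Ogdhl (−0.20 against 0.12) and Oip5, a centromere factor gene (−0.48 against 0.50), came next.

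The difference from the hippocampus of males without inhibitor (11 libraries) gave 0 calls by limma (smallest adjusted p 1.00) and 308 genes at an unadjusted p under 0.05 (1.68%). Slc23a3 was at −1.12 in prefrontal cortex and 0.61 in hippocampus, a difference of −1.73 ± 0.50. The filter admitted this gene through its prefrontal saline values, which favours a negative prefrontal value. Tafa1, a secreted neuronal protein gene, was at 0.24 and −0.14, and Apool, a mitochondrial cristae protein gene, at 0.48 and −0.15. With libraries of the same label treated as a block, 982 genes had an unadjusted p under 0.05 and 0 were called.

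The 20 genes with the smallest p-values in prefrontal males kept their sign in 15 cases in prefrontal females, 10 in males given PLX and 15 in hippocampal males. Over all genes the sign was shared by 58.8%, 44.7% and 52.0%. Mapk15 and Slc23a3, whose entry to the test rested on their saline values, are among the 20. The hippocampal count may include the same animals, and none of these 3 other effects had a called gene (935, 512 and 413 genes at an unadjusted p under 0.05, limma).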

How the data were processed

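Messenger RNA was sequenced in stranded libraries from 200 ng of total RNA, per the labels' protocols. The submitters' processing notes name Trimmomatic and STAR 2.6.1d with GRCm39 (mm39). The sources used here name no read counter. The deposited signal values are counts that the authors divided by a factor per library. Dividing each column by its smallest nonzero value gave whole reads for 100% of values (tolerance 0.01), and these reads went to edgeR 4.0.16 and DESeq2 1.42.0 as alternatives. The main test was limma 3.58.1 in R 4.3.3 on log2(signal + 1): all 48 prefrontal libraries in 8 groups (96 libraries in 16 groups for the tissue difference), moderated variances with a trend, two-sided, Benjamini-Hochberg over the 18344 genes, called at an adjusted p under 0.05. List medians and counts are descriptions.

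Named genes are, higher and lower, those with the 10 smallest p-values with and without the cluster term (160 ribosomal and respiratory genes), the 6 widest non-overlapping differences in each direction at a mean signal of at least 50, at most 4 members per list (39 lists, 884 of 919 symbols in the table), 10 marker genes and the 3 smallest p-values of each difference of effects. Predicted genes were counted but not named, and some genes that the rule names are not reported here. The comparison, lists and members were chosen with earlier results of these data known. No genome coordinates are in the table. For MIA and saline libraries of the same replicate number, deviations from the group means correlated at −0.56 to 0.30. These deviations include the clusters, so they cannot show whether the numbers mark a shared litter or batch. The model was run on simulated counts of independent libraries without clusters or differences in tissue composition. That run does not test it under the clusters and spread of these libraries.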

Additional observations from a re-analysis of the deposited data

Results flagged for a closer look

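Of 178 groups of libraries screened for a single outlying value, 6 had one, and at the 95% level of Dixon's test chance would give about 1 in 20. In saline 2, Slc23a3 had a signal of 21.5 against 12.3 to 15.6 in the other saline libraries, and Catsperd, a sperm calcium channel subunit gene, 25.7 against 32.0 to 35.1. In saline 6, Pign, a gene of GPI anchor synthesis, had 672 against 438 to 507. The other 3 were list levels, as log2 relative to the saline mean. Blood genes were at −3.89 in MIA 2 against −0.77 to 0.46 in the other MIA libraries. Ribosomal protein genes were at −0.36 in saline 6 against −0.01 to 0.15, and nuclear respiratory chain genes at −0.43 against 0.03 to 0.18. Saline 6 is the saline library of the low cluster.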

How the results depend on the processing

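The count of called genes was 0 in this comparison and in the 3 differences of effects under every alternative run: pseudocounts of 0.5 and 5, no filter, a minimum of 50, TMM scaling, edgeR, DESeq2, the compared groups alone, array weights, the term for the cluster share, either cluster alone and each of the 11 prefrontal control male libraries left out. The clusters of the first component were tried for MIA against saline alone, and no female, PLX or hippocampal library was left out of the differences. The smallest adjusted p for MIA against saline was 0.281, without the high cluster, where saline 6 was the only saline library. Genes at an unadjusted p under 0.05 ranged from 304 (compared groups alone) to 1552 (without the high cluster on the first component). The non-overlapping genes numbered 49, 89 with the cluster term, and 76 to 123 with 1 library left out, where fewer libraries make overlap less likely. With the replicate block, 0 genes were called and 489 had an unadjusted p under 0.05; the block changed no call. The difference between males without and with PLX could not be fitted on the high cluster alone. Genes of low signal such as Mapk15 and Slc23a3 are limited by their few reads.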
